A study of Mus musculus with 4 samples.

Results

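A set of 9 genes of lipid transport was followed in the stomach corpus of mice: the apolipoprotein genes Apoa1, Apoa4, Apob, Apoc3, Apod and Apoe, Mttp, which encodes the microsomal triglyceride transfer protein, and the fatty acid-binding protein genes Fabp1 and Fabp2. They were taken by symbol from a table of 52125 rows, and all 9 were among the 18285 genes with enough reads to be tested. They were listed with the difference between the groups already known, so their levels and differences are given as a description and no p-value is attached to them. The series compared RNA of the gastric corpus, where acid is secreted, from wild-type C57BL/6 mice aged 6 to 8 weeks at 48 hr, with 1 mouse per library. To injure the stomach, the 2 mice of the HDT group were injected into the peritoneum once, with 5 mg for each 20 g of body weight, and 2 mice formed the vehicle group. The labels give HDT only as an abbreviation, which in studies of gastric injury usually means high-dose tamoxifen. The controls are called vehicle in the sample titles and untreated in the extraction text, so whether they were injected is not settled. The groups differ by the whole tissue response to the agent, and no other injury or time point was analysed here.

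Lipids travel in blood inside lipoproteins, particles whose surface proteins are the apolipoproteins. In enterocytes and hepatocytes the Mttp protein loads lipid onto apolipoprotein B, the scaffold of chylomicrons and very-low-density lipoproteins, while apolipoprotein A-I is the main protein of high-density lipoprotein and apolipoproteins A-IV and C-III ride on triglyceride-rich particles. Apolipoprotein E is a ligand of lipoprotein receptors made by many cells, macrophages among them, and apolipoprotein D is a lipocalin that binds small hydrophobic molecules. Fabp1 and Fabp2 encode the liver and intestinal fatty acid-binding proteins, which carry fatty acids inside the cell. Liver and small intestine are the textbook sites of this pathway, and the stomach is not usually counted among them.

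Depth was 41536686 to 42674985 recovered reads per library. Levels are given as CPM, the usual depth-corrected read count, on TMM-scaled libraries, and differences as HDT minus vehicle on the scale log2(scaled value + 1). Markers of the gastric corpus were abundant: all 10 parietal cell genes, 7 of 8 chief cell genes and all 6 surface mucous cell genes were tested, and Lipf was at 0 in every library. Their most abundant genes were Atp4a and Atp4b, Pgc and Chia1, and Gkn2 and Gkn1. These 3 lists were lower after HDT, with 9 of 10, 5 of 7 and 6 of 6 tested members called lower, where 19.3% of all tested genes were. Limma called 0 higher in each, and at an unadjusted p below 0.05 it was 0, 1 and 0. At the deposited scaling 7, 4 and 2 were called lower and 1, 1 and 0 higher, and leaving out either vehicle library left 3 surface mucous cell genes called lower. The summed level of the parietal list was 13440 and 14660 CPM in vehicle and 2808 and 2460 CPM in HDT. Vehicle replicate 2 stood apart in pancreatic acinar genes, led by Cela1 and Ctrb1. Their sum was 239.8 CPM there, against 38.7 CPM in vehicle replicate 1 and 15.6 and 15.9 CPM in HDT, and the defining gene Cpa1 had 556 reads there and 0 in the other libraries.

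**Figure D1:**
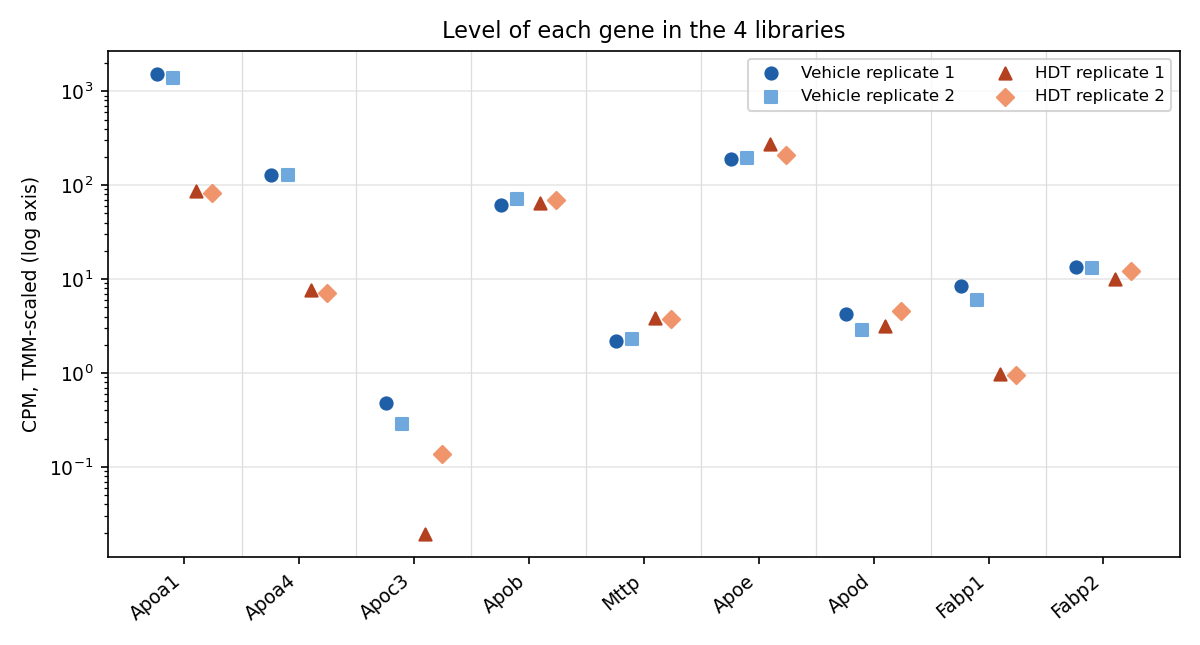
CPM (log axis) of the 9 genes in each of the 4 libraries, vehicle as blue circles and squares and HDT as red triangles and diamonds. Apoa1, Apoa4 and Fabp1 lay far lower in both HDT libraries, Mttp and Apoe lay higher, and Fabp2 lay slightly lower. Apoc3 was also lower but barely detected, at 10 reads in vehicle replicate 2 and 7 in HDT replicate 2. The groups of Apob and Apod overlapped.

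The 9 genes did not move as one. The A-type apolipoproteins and Fabp1 were much lower after HDT, while the particle scaffold Apob was level and its loading partner Mttp was higher. Apoc3 was lower too, at no more than 17 reads in any library. With limma's test at an adjusted p below 0.05, 4 of the 9 were called lower and 1 higher, where 37.7% of all tested genes were called, 18.4% higher and 19.3% lower. The 2 groups did not overlap for 7 of the 9, with HDT above in 2 and below in 5, where 70.8% of all tested genes were separated in this way, 35.3% above and 35.5% below. Their median difference was −0.26, against −0.001 over all tested genes. Because the 9 were chosen on this contrast, nothing is read from these counts. The scaling matters for the small differences. At the scaling of the deposited values the median of all tested genes was 0.526, and the differences of the 9 genes were shifted upwards by a similar amount. Without vehicle replicate 2, the library with pancreatic transcripts, the log2 differences were −4.18 for Apoa1, −4.12 for Apoa4, −2.68 for Apoc3 and −3.09 for Fabp1. Without it they were 0.78 for Mttp, 0.35 for Apoe and −0.28 for Fabp2, with Apob at 0.13 and Apod, whose sign turned, at −0.13.

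Apoa1, on chromosome 9 at 46228580 to 46230466 (GRCm38, plus strand), was by far the most abundant of the 9 in vehicle. It stood at 1534 and 1379 CPM in the vehicle libraries and at 86.6 and 82.2 CPM in the HDT libraries. Both HDT values were below both vehicle values, and the replicates of a group lay close together. The mean went from 1456 ± 110 to 84.4 ± 3.11 CPM (SD, n = 2), a log2 difference of −4.11 (SE 0.074) and 17.3-fold lower. In recovered reads this was 54010 and 47491 against 4455 and 4150. Of the summed CPM of the 9 genes, Apoa1 made up 79.0% and 76.8% in the vehicle libraries and 19.2% and 21.1% in the HDT libraries. The summed level went from 1941 and 1795 CPM to 450.2 and 390.6 CPM, so the lower sum was mostly that of Apoa1. The parietal, chief and surface mucous cell lists given above were lower in the same libraries, and their part in this difference was not tested. In bulk tissue, fewer cells of a type and less RNA per cell cannot be told apart.

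Apoa4, which starts 10229 bases beyond the end of Apoa1 on the same strand (46240696 to 46243459), was lower by the same factor. Its level was 129.5 and 128 CPM in vehicle and 7.68 and 7.15 CPM in HDT, with no overlap between the groups. The mean went from 128.7 ± 1.23 to 7.42 ± 0.37 CPM, a log2 difference of −4.11 (SE 0.070). The ratio of Apoa1 to Apoa4 reads was 11.8 and 10.8 in the vehicle libraries and 11.3 and 11.5 in the HDT libraries, so it hardly moved while both genes were lower. In an ordering by log2 difference of the 15417 genes that reached 1 CPM in either group's mean, Apoa4 was the 14th and Apoa1 the 15th from the bottom. The values of Apoa4 carry a counting limit. The noncoding gene Gm10680 lies antisense to it, and 90.0% of the exon bases of Gm10680 are also exon bases of Apoa4. Gm10680 had 3147 and 3061 reads in vehicle and 278 and 265 in HDT. The Apoa4 to Gm10680 ratio was 1.45, 1.44, 1.42 and 1.36 in vehicle replicates 1 and 2 and HDT replicates 1 and 2, and reads of the pair cannot be told apart without the strand setting of the counting, which no source used here gives.

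Apoc3 lies between them on the opposite strand (46232933 to 46235636) and was barely detected. It had 17 and 10 reads in the vehicle libraries and 1 and 7 reads in the HDT libraries, or 0.48, 0.29, 0.019 and 0.14 CPM. Both HDT values were lower, and the 2 HDT libraries differed widely from each other. The means were 0.39 ± 0.14 and 0.079 ± 0.084 CPM. The log2 difference of −2.30 (SE 0.721) was −3.25 without HDT replicate 2 and −1.30 without HDT replicate 1. The library with 7 reads, HDT replicate 2, was also the one with 13 reads of the intestinal disaccharidase gene Sis, 18 of the maltase gene Mgam and 89 of the intestinal alkaline phosphatase gene Alpi. HDT replicate 1 had 0, 0 and 17 reads of these genes. They were chosen from 18 enterocyte genes for their role or after their values were seen. The sum of those 18 genes was instead higher in HDT replicate 1, at 615 CPM against 510.1 CPM in HDT replicate 2. So was the lactase gene Lct, at 328 against 252 reads. The part of intestinal transcripts in the Apoc3 value was not tested. The fourth gene of the cluster, Apoa5, had 1 read in all 4 libraries together.

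The RefSeq promoter windows of Apoa1 and Apoa4 are shown because the 2 genes were lower by the same factor. Those of Fabp1, also far lower, and of Apob, which was level, stand beside them. RefSeq (GRCm38.p6) held windows for 8 of the 9 genes, 10 windows in all, from 250 bases before to 50 bases after a transcript start. Capitals mark short motif cores found on either strand.
Apoa1: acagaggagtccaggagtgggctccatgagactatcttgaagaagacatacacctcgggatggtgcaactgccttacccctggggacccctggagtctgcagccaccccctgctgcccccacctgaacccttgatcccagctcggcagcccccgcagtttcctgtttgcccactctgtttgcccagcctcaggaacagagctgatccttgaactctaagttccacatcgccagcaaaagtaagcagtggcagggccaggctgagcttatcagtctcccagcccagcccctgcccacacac
Apoa4: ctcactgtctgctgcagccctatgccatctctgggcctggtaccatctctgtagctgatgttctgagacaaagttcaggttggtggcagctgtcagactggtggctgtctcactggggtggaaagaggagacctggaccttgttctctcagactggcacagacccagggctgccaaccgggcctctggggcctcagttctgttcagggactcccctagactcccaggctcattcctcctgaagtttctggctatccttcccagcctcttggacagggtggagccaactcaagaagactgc
Fabp1: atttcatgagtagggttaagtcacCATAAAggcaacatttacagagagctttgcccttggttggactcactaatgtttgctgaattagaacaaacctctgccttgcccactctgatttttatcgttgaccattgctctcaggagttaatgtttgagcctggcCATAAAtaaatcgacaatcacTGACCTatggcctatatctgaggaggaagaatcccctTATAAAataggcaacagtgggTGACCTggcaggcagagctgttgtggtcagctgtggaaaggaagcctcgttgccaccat
Apob: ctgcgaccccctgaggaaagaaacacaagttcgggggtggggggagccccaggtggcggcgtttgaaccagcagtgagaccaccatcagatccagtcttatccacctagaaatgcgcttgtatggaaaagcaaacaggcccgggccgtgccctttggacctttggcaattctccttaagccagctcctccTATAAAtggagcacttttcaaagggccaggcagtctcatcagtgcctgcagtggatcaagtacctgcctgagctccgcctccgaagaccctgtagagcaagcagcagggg
The windows are chr9:46228380-46228679, chr9:46240594-46240893, chr6:71199629-71199928 and chr12:7977427-7977726, all on the plus strand. Each core was searched on both strands in 32851 windows of this length, and none contains another. The HNF4 core CAAAGTC was in 4.44% of them and the TATA box TATAAA in 13.6%. The CDX core TTTATG was in 11.9%, the GATA core AGATAA in 11.2%, the FOXA core TGTTTAC in 3.65% and the nuclear receptor core AGGTCA in 16.3%. None of the 6 cores was found in the Apoa1 or the Apoa4 window. GENCODE M21 starts Apoa4 at 46240696, well before the transcript start on which its window is built. Most of the Apoa4 window therefore lies inside the gene, and fewer bases upstream of the gene were searched than for Apoa1. The Fabp1 window held TATAAA 30 bases before the start, the CDX core at 2 places and the nuclear receptor core at 2 places, in both cases on the reverse strand. The Apob window held TATAAA 60 bases before the start. Of the 3 Apoe windows, 1 held the TATA box and 1 the FOXA core, and both of these windows lie inside the gene. The Apoe window at the start of the gene in GENCODE M21, 19699139 to 19699438 on the minus strand, held none of the cores. The windows of Mttp, Fabp2 and Apod held none. A match of letters is a description and not a bound site. Only these exact letters were searched, so a window without a match may still hold a site spelled differently.

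**Figure D2:**
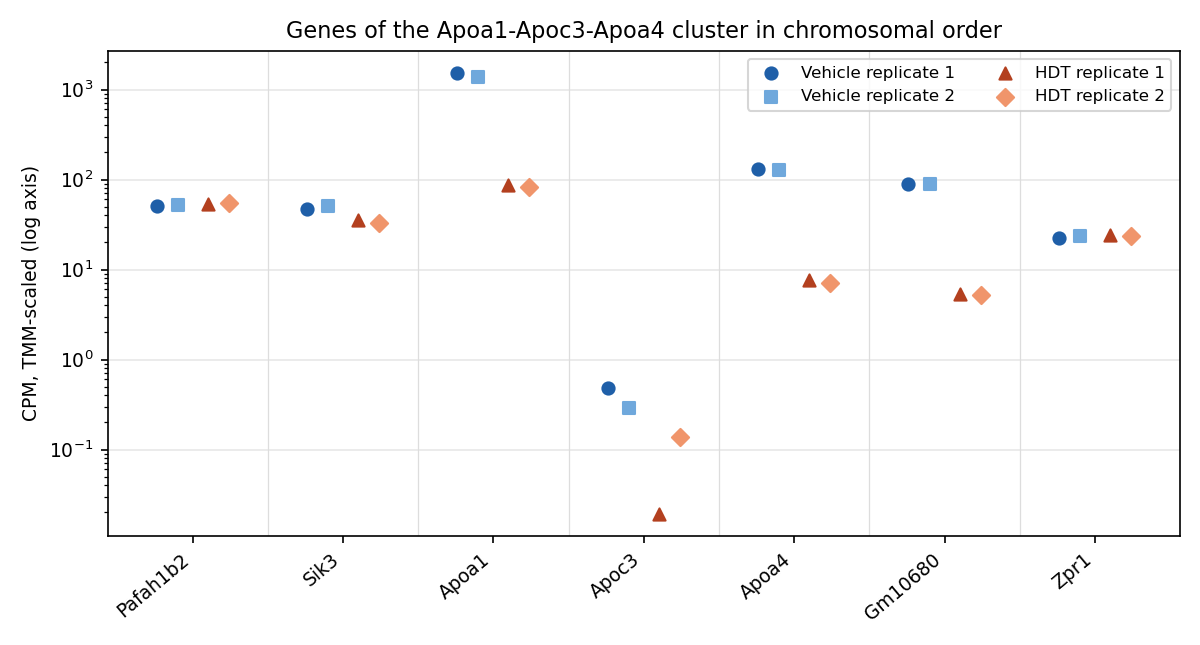
CPM (log axis) in the 4 libraries of the genes around Apoa1, placed in their order along chromosome 9, with Apoa5 left out for its single read. Apoa1, Apoc3, Apoa4 and the overlapping Gm10680 were lower after HDT, while Pafah1b2 and Zpr1 on either side kept to 51.4 against 54.4 and 23.1 against 23.9 mean CPM, and Sik3 was modestly lower.

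The genes next to the cluster did not show a drop of that size. Sik3, a salt-inducible kinase gene that ends 4385 bases before Apoa1, fell by 0.52 on the log2 scale (limma adjusted p = 0.000955), from 49.3 ± 2.65 to 34.3 ± 1.86 CPM, and had no call at the deposited scaling. Zpr1 beyond the cluster was at 23.1 ± 0.70 and 23.9 ± 0.63 CPM, a log2 difference of 0.05 (limma adjusted p = 0.624). Over all 9 genes, the 2 nearest protein-coding genes on each side gave 28 further genes, of which 19 were tested. Of these, 8 were called lower and 2 higher, or 52.6% against 37.7% of all tested genes, with a median of −0.02. At the deposited scaling 2 were lower and 15 higher, and without vehicle replicate 2 limma called 0 higher and 6 lower. The largest changes among them were on both sides of Fabp1: Smyd1, a muscle methyltransferase gene, fell by 2.48 on the log2 scale from 0.76 ± 0.049 to 0.13 ± 0.068 CPM (limma adjusted p = 0.00343). Thnsl2, a threonine synthase-like gene, fell by 2.17 from 13.1 ± 3.70 to 2.85 ± 0.39 CPM (limma adjusted p = 0.000291).

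Apob, which encodes the scaffold of chylomicrons and very-low-density lipoproteins (chromosome 12, 7977648 to 8016835), was present and level. Its libraries stood at 61.6 and 71.5 CPM in vehicle and 65.3 and 69.4 CPM in HDT. The groups overlapped, with means of 66.5 ± 6.98 and 67.4 ± 2.86 CPM, and the log2 difference of 0.02 (SE 0.083) was −0.09 without vehicle replicate 1 and 0.13 without vehicle replicate 2. At the deposited scaling it was 0.55, about the shift of all genes. The Apoa1 to Apob read ratio accordingly went from 24.9 and 19.3 in the vehicle libraries to 1.33 and 1.19 in the HDT libraries.

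Mttp, whose product loads lipid onto apolipoprotein B in the endoplasmic reticulum (chromosome 3, 138089854 to 138144968, minus strand), was low and somewhat higher after HDT. It was at 2.22 and 2.32 CPM in vehicle and 3.87 and 3.77 CPM in HDT, or 78, 80, 199 and 190 reads. Every HDT value was above every vehicle value, with means of 2.27 ± 0.076 and 3.82 ± 0.074 CPM and a log2 difference of 0.75 (SE 0.153). It ranged from 0.71 to 0.78 when each library in turn was left out. The gene overlaps Trmt10a, a tRNA methyltransferase gene on the other strand, at 7.36% of the Mttp exon bases. Trmt10a rose by 0.58 on the log2 scale (limma adjusted p = 0.0166), and no source used here says how reads of the shared bases were divided. The Apob to Mttp read ratio was 27.8 and 30.8 in vehicle and 16.9 and 18.4 in HDT.

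Other genes of particle assembly and export moved in both directions. Of 22 genes listed, 20 were tested, 3 were called higher and 8 lower, or 55.0% against 37.7% of all tested genes. The median was −0.01. The 3 called higher were Tm6sf2, a membrane protein gene needed for lipid loading of very-low-density lipoprotein, Mogat2, the monoacylglycerol acyltransferase gene of enterocytes, and Soat2, which encodes an enzyme that makes cholesteryl esters. Tm6sf2 rose from 0.85 ± 0.0072 to 2.03 ± 0.070 CPM (log2 difference 1.24, limma adjusted p = 0.00239). Mogat2 rose from 1.22 ± 0.042 to 2.86 ± 0.25 CPM (1.21, limma adjusted p = 0.0016). Soat2 rose from 3.89 ± 0.081 to 5.73 ± 0.65 CPM (0.55, limma adjusted p = 0.0165), a call that ended on leaving out vehicle replicate 1 (limma adjusted p = 0.0553) or HDT replicate 2 (0.0756). P4hb, the protein disulfide isomerase that pairs with the Mttp protein, was picked out after its values were seen. It fell from 1059 ± 24.4 to 773.9 ± 44.2 CPM (log2 difference −0.45, limma adjusted p = 0.00199). The direction of these falls rests on the scaling: at the deposited scaling P4hb lay above 0, and limma called 0 of the list lower and 14 higher. On leaving out either vehicle library 5 were called lower, and on leaving out HDT replicate 1 the number called higher was 5.

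Apoe, the receptor ligand (chromosome 7, 19696109 to 19699188, minus strand), was slightly higher after HDT and varied between the treated mice. It was at 188 and 193 CPM in vehicle and at 272 and 210.2 CPM in HDT. Both HDT values were above both vehicle values, though HDT replicate 2 only narrowly so. The means were 190.1 ± 3.46 and 241.4 ± 44.0 CPM. The log2 difference was 0.33 (SE 0.120), and it was 0.15 without HDT replicate 1 and 0.54 without HDT replicate 2. Markers of macrophages, a known source of apolipoprotein E, moved the same way. Of 14 listed, all were tested, 11 were called higher, or 78.6% against 37.7% of all tested genes, and none was at 0. Limma called 0 lower, also at an unadjusted p below 0.05. Their summed level was 241 and 255 CPM in vehicle and 570.1 and 473 CPM in HDT, again higher in HDT replicate 1. The most abundant of them, the lysozyme gene Lyz2, stood at 60.9 and 69.0 CPM in vehicle and 209 and 146 CPM in HDT, and the complement gene C1qa at 30.6, 32.2, 49.95 and 47.9 CPM in the same order. Most of the gap between the HDT sums came from Lyz2. Cd68 (37.0 and 39.2 CPM in HDT replicates 1 and 2), Mrc1 (13.2 and 16.3) and Cd163 (1.34 and 3.01) were instead higher in HDT replicate 2. The other markers were higher in HDT replicate 1. The part of macrophages in the Apoe values was not tested.

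The gene cluster of Apoe also holds Apoc1, Apoc4 and Apoc2. Apoc2, which encodes the activator of lipoprotein lipase, rose from 0.57 ± 0.28 to 3.15 ± 0.98 CPM, a log2 difference of 2.47 (limma adjusted p = 0.00246). Its reads numbered 27, 13, 198 and 124 in vehicle replicates 1 and 2 and HDT replicates 1 and 2. Gm44805, which shares exon bases with both Apoc2 and Apoc4, had 27, 13, 199 and 124 reads, almost the same counts, so the pair cannot be told apart here. Apoc1 had 6, 7, 8 and 6 reads and Apoc4 had 0, 1, 2 and 1, too few for the test. The Apoe neighbour Tomm40, a mitochondrial import gene, was at 50.6 ± 2.63 and 55.4 ± 2.62 CPM (limma adjusted p = 0.18).

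Apod, the lipocalin (chromosome 16, 31296192 to 31314808, minus strand), gave no consistent direction. It was at 4.23 and 2.90 CPM in vehicle and 3.21 and 4.64 CPM in HDT, and the groups overlapped. The means were 3.57 ± 0.94 and 3.92 ± 1.01 CPM. The log2 difference was 0.14 (SE 0.243), and leaving out 1 library at a time took it from −0.13 to 0.41. Fibroblasts and glia are known to express Apod. Of 10 fibroblast genes 5 were called higher and 1 lower, or 60.0% against 37.7% of all tested genes. Their summed level was 1127 and 1110.0 CPM in vehicle and 1962 and 2211 CPM in HDT, led by the collagen genes Col3a1 and Col1a1. Of 10 glial and Schwann cell genes 3 were called higher and 1 lower, with sums of 325 and 324 against 319 and 332 CPM, led by Erbb3 and Mbp. No gene of either list was at 0.

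Among the remaining apolipoproteins, 14 were listed and 6 had enough reads to be tested. Of these 2 were called higher and 2 lower, or 66.7% against 37.7% of all tested genes, with a median of 0.13. Clu, the gene of clusterin or apolipoprotein J, was known to be higher from earlier results on these data. It rose from 1296 ± 83.7 to 6258 ± 875 CPM, a log2 difference of 2.27 (limma adjusted p = 7.26e-06). It was at 1237 and 1356 CPM in the vehicle libraries and at 6877 and 5639 CPM in the HDT libraries. Saa3, which encodes an acute-phase apolipoprotein of high-density lipoprotein, fell by 4.01 on the log2 scale (limma adjusted p = 0.0221) from 11.7 and 5.28 CPM to 0.27 and 0.79 CPM. Leaving out HDT replicate 1 ended the call (log2 difference −3.27, limma adjusted p = 0.0817). Apoa2, the second protein of high-density lipoprotein, was the other called lower, at 0.85 and 1.28 CPM in vehicle and 0.39 and 0.52 CPM in HDT (limma adjusted p = 0.0212), with no call at the deposited scaling. On leaving out vehicle replicate 2 only 1 of the list was called lower, and on leaving out HDT replicate 1 limma called 0.

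Fabp1 and Fabp2, the fatty acid-binding proteins of liver and intestine, parted ways. Fabp1 (chromosome 6, 71199827 to 71205023) was at 8.35 and 6.07 CPM in vehicle and at 0.97 and 0.95 CPM in HDT. The groups were well apart, with means of 7.21 ± 1.61 and 0.96 ± 0.015 CPM, a log2 difference of −2.86 (SE 0.197) and a fold of 7.497. Fabp2 (chromosome 3, 122895072 to 122899506) was at 13.3 and 13.0 CPM in vehicle and 9.97 and 12.1 CPM in HDT. Both HDT values were below both vehicle values but near them, with means of 13.2 ± 0.24 and 11.03 ± 1.49 CPM, and the log2 difference of −0.26 (SE 0.112) became 0.27 at the deposited scaling. The Fabp2 to Fabp1 read ratio therefore went from 1.60 and 2.14 in the vehicle libraries to 10.3 and 12.7 in the HDT libraries.

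**Figure D3:**
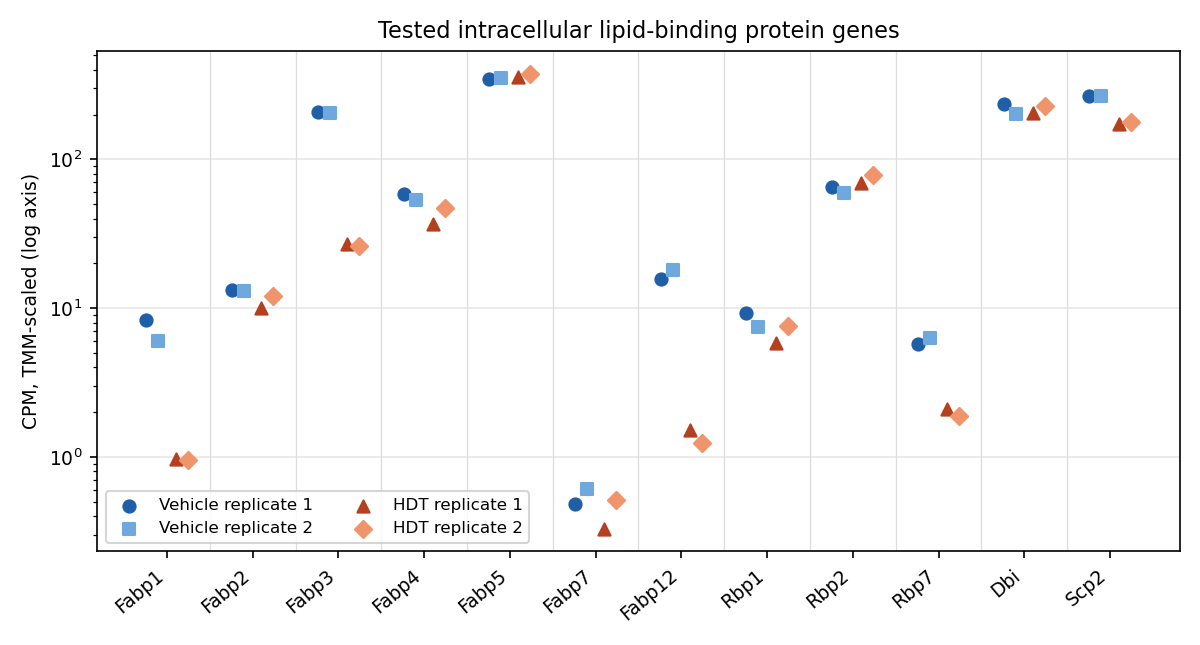
CPM (log axis) in the 4 libraries of Fabp1, Fabp2 and the 10 tested genes of the list of other lipid-binding proteins. Fabp1, Fabp3, Fabp12 and Rbp7 lay clearly lower in HDT, while Fabp2, Fabp5, Rbp2 and Dbi stayed near their vehicle levels.

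Of 15 other intracellular lipid-binding protein genes 10 were tested. Of these 10, 5 were called lower, where 37.7% of all tested genes were called, 18.4% higher and 19.3% lower. The median of the list was −0.40. Limma, edgeR and DESeq2 each called 0 higher, and at limma's unadjusted p below 0.05 it was 1. Pmp2 and Fabp9 were at 0 in every library. Fabp12 fell from 16.9 ± 1.70 to 1.38 ± 0.19 CPM (log2 difference −3.60, limma adjusted p = 3.7e-06). Fabp3, the heart-type protein, fell from 207 ± 0.97 to 26.7 ± 0.73 CPM (−2.95, limma adjusted p = 1.17e-07). Rbp7, a cellular retinol-binding protein gene, fell from 6.03 ± 0.38 to 2.01 ± 0.15 CPM (−1.58, limma adjusted p = 0.000152). These 3 were lower at every scaling tried, while at the deposited scaling the whole list had 3 called lower and 3 called higher. Parietal cell markers were lower in the same libraries, and their part in these changes was not tested.

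**Figure D4:**
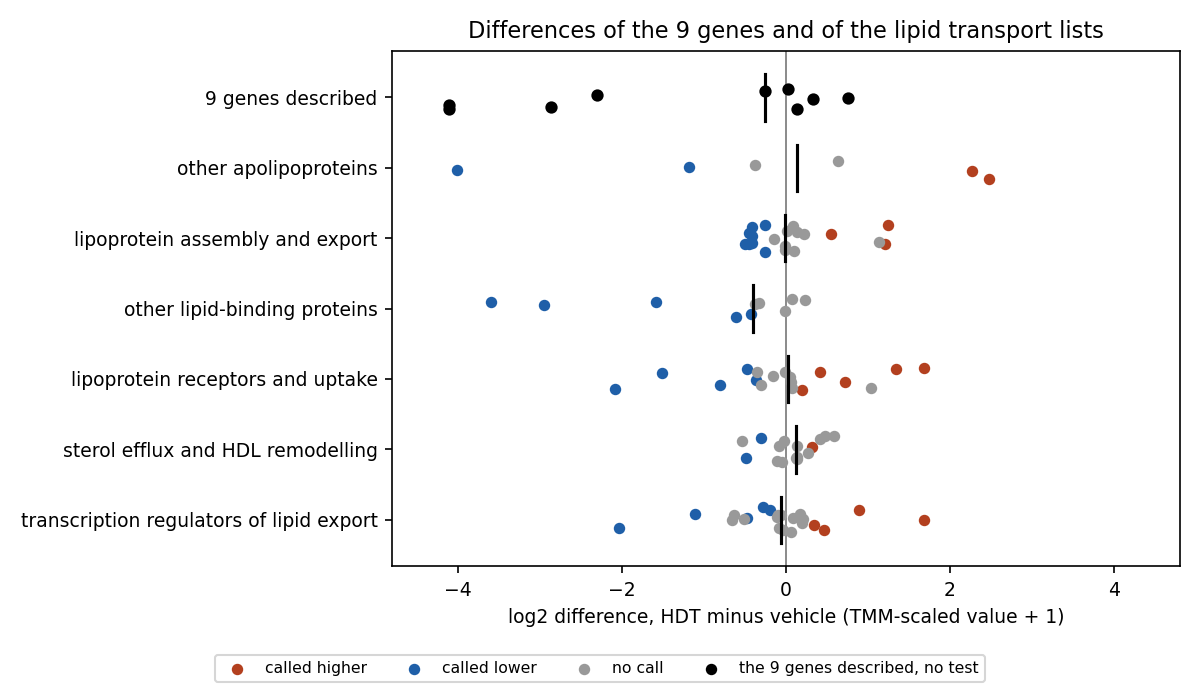
Log2 difference, HDT minus vehicle, of the 9 genes (black, described with no test) and of every tested gene of 6 lipid transport lists, coloured by limma's call, with the median of each row as a bar. The 9 genes ranged from −4.11 to 0.75, and the medians of the 6 lists lay between −0.40 and 0.13.

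Receptors and uptake genes were split evenly. Of 19 listed 18 were tested, 5 were called higher and 5 lower, or 55.6% against 37.7% of all tested genes. The median was 0.02, and at the deposited scaling 10 were higher and 3 lower. Lrp2, the megalin gene, fell from 2.59 ± 0.32 to 0.61 ± 0.21 CPM (log2 difference −2.09, limma adjusted p = 0.000848). Lrp8, which encodes a receptor for apolipoprotein E, rose from 1.53 ± 0.43 to 4.84 ± 0.17 CPM (1.68, limma adjusted p = 0.000628). Cd36, the fatty acid translocase gene, fell from 131 ± 14.2 to 45.9 ± 3.76 CPM (−1.51, limma adjusted p = 2.09e-05). Leaving out vehicle replicate 2 or HDT replicate 1 left 3 called lower.

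Genes of sterol efflux and remodelling of high-density lipoprotein, the particle built around apolipoprotein A-I, had few calls. Of 18 listed 16 were tested, 1 was called higher and 2 lower, or 18.8% against 37.7% of all tested genes, with a median of 0.12. This difference in share was not tested, and at the deposited scaling 12 were called higher and, by limma, 0 lower. Abca1, the transporter gene that feeds lipid to apolipoprotein A-I, was at 13.2 and 14.8 CPM in vehicle and 21.8 and 16.1 CPM in HDT (limma adjusted p = 0.0685), and was picked out for its role after its values were seen. Npc2, a lysosomal sterol carrier gene, fell from 116 ± 0.80 to 82.3 ± 0.14 CPM (log2 difference −0.49, limma adjusted p = 0.000406). Pon3, a paraoxonase gene, fell from 48.0 ± 3.12 to 39.0 ± 1.91 CPM (−0.30, limma adjusted p = 0.0148). Both were above 0 at the deposited scaling, at 0.04 and 0.23. Abcg1, another efflux transporter gene, was called higher at 8.37 ± 0.43 and 10.4 ± 0.30 CPM (log2 difference 0.32, limma adjusted p = 0.0401), a call lost when any 1 of the 4 libraries was left out (limma adjusted p 0.0648 to 0.189). The call of Pon3 ended on leaving out vehicle replicate 2 (limma adjusted p = 0.101) or HDT replicate 1 (0.0602).

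Transcription regulators known for apolipoprotein genes in liver and intestine moved in both directions. Of 25 listed 23 were tested, 4 were called higher and 5 lower, or 39.1% against 37.7% of all tested genes, with a median of −0.06. Hnf4a, the nuclear receptor gene most tied to Apoa1, Apob and Mttp in liver, was at 131 and 130.4 CPM in vehicle and 143 and 152 CPM in HDT (log2 difference 0.17, limma adjusted p = 0.0616), and it was called higher without HDT replicate 1 (0.22, limma adjusted p = 0.0275). Hnf4g and Creb3l3 had log2 differences of 0.06 and −0.63 (limma adjusted p = 0.779 and 0.0793). The coactivator gene Ppargc1a fell from 34.03 ± 9.48 to 8.09 ± 0.29 CPM (log2 difference −2.04, limma adjusted p = 0.000646), a call that ended on leaving out either HDT library (limma adjusted p = 0.0555 and 0.06). The corepressor gene Nr0b2 fell from 11.8 ± 2.17 to 5.45 ± 1.01 CPM (−1.11, limma adjusted p = 0.00223). The pioneer factor gene Foxa1 rose from 126 ± 8.25 to 233 ± 8.21 CPM (0.89, limma adjusted p = 5.63e-05). At the deposited scaling 17 of the list were higher and 2 lower. On leaving out HDT replicate 1, 2 were called lower, and on leaving out any other library 3.

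Markers of the organs best known for these genes were followed in the same libraries. Of 15 hepatocyte genes 11 were tested, 2 were called higher and 3 lower, or 45% against 37.7% of all tested genes. At the deposited scaling 6 were called higher and 2 lower. The sum of the list was 118 and 112 CPM in vehicle and 48.1 and 39.5 CPM in HDT. Ttr and Ahsg were the most abundant, and nearly all of the sum was Ttr, the transthyretin gene, which gastric endocrine cells are also known to express, at 106.5 and 101 CPM in vehicle. Albumin, the defining hepatocyte gene, was at 1.16 and 0.96 CPM in vehicle and 0.41 and 0.69 CPM in HDT, and the fibrinogen gene Fgb had 0, 0, 1 and 3 reads. Of 18 enterocyte genes 9 were tested, 3 were called higher and, by limma, 0 lower, or 33.3%, near the 37.7% of all tested genes. At limma's unadjusted p below 0.05, and by edgeR and by DESeq2, 1 was lower. The sums of the list were 304 and 335 CPM in vehicle and 615 and 510.1 CPM in HDT, made up mostly of Anpep and Rbp2. Without vehicle replicate 2, and likewise without HDT replicate 2, limma called 2 higher and 1 lower. The 3 called higher were the lactase gene Lct, the aminopeptidase gene Anpep and the villin gene Vil1. The intestinal identity factor Cdx2 had 0, 0, 0 and 2 reads, and the sucrase gene Sis 0, 0, 0 and 13. None of the 18 or the 15 genes was at 0 in all 4 libraries. Adipocyte genes summed to 561 and 603 CPM in vehicle and 99.3 and 111 CPM in HDT, led by Lpl, the lipoprotein lipase gene, and Cidec. Most of the sum was Lpl, at 509.4 and 560.4 CPM in vehicle and 72.15 and 85.9 CPM in HDT. Of the 9 tested, limma called 2 lower and 0 higher, or 22.2% against 37.7% of all tested genes. The defining gene Adipoq was at 1.93, 0.96, 1.69 and 0.46 CPM. The sum of 12 squamous forestomach genes, led by Krt10 and Krt13, was 4.32 and 3.98 CPM in vehicle and 4.90 and 5.61 CPM in HDT.

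**Figure D5:**
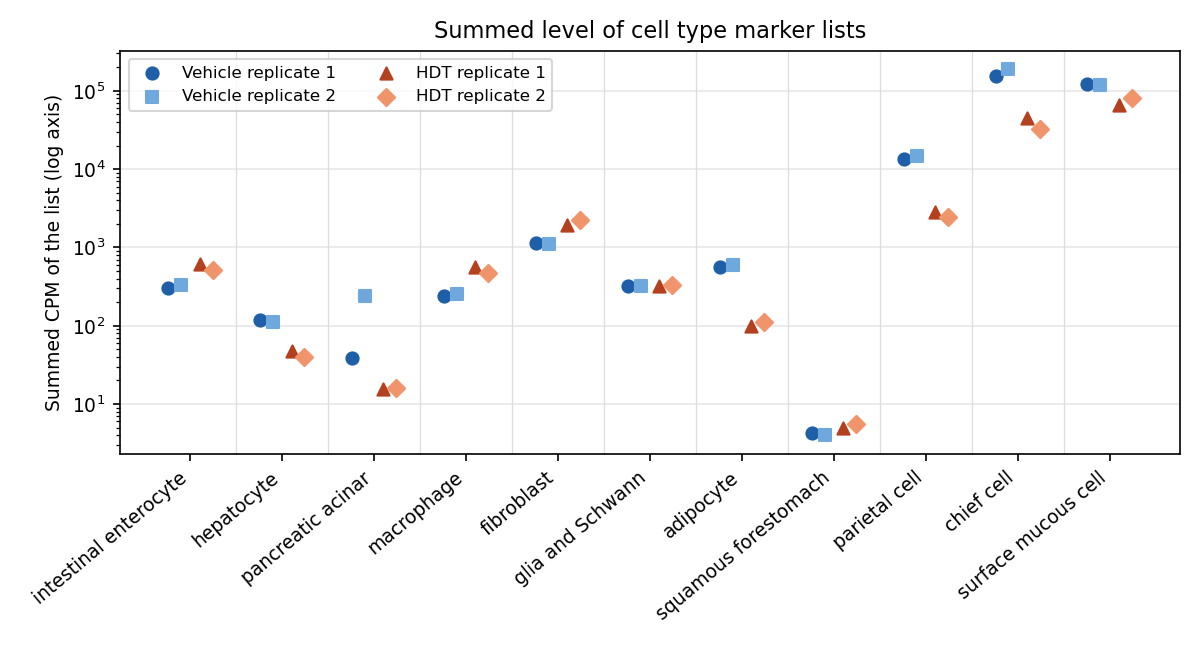
Summed CPM (log axis) of 11 cell type marker lists in the 4 libraries. Parietal, chief and surface mucous cell lists lay lower in HDT, macrophage, fibroblast and enterocyte lists higher, and vehicle replicate 2 stood apart in the pancreatic acinar list at 239.8 CPM.

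Corrected for length, as mean CPM per kilobase of GENCODE M21 exon, the order in vehicle was Apoa1 at 1178, Apoe at 88.9, Apoa4 at 70.9, Fabp2 at 13.6, Fabp1 at 13.0, Apob at 4.77, Apod at 1.38, Apoc3 at 0.38 and Mttp at 0.37. Fabp2 and Fabp1, with SDs of 0.25 and 2.92, and Apoc3 and Mttp, with SDs of 0.13 and 0.012, did not differ beyond their spread. In HDT the order became Apoe at 113, Apoa1 at 68.3, Fabp2 at 11.4, Apob at 4.84, Apoa4 at 4.09, Fabp1 at 1.74, Apod at 1.52, Mttp at 0.62 and Apoc3 at 0.078. Apoe thus passed Apoa1, and Apob passed Apoa4, without a large change of its own. In HDT, Fabp1 and Apod, with SDs of 0.027 and 0.39, did not differ beyond their spread.

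Apart from the 9 genes themselves, which were not compared, the genes most like Apoa1 in pattern, by the Euclidean distance of centred log2 values over the 4 libraries, were AC116503.1 (distance 0.0775), Gm10680 (0.116) and the zymogen granule gene Sycn (0.173). Of the 15409 other genes that reached 1 CPM in either group's mean, 8 lay within 0.5 of it. Around Mttp, the gene with the highest difference of the 9, 3005 genes lay that close, the nearest being Ugp2, Baz1a and Eftud2. The likeness is a description over 4 libraries in 2 groups. That of Gm10680 to Apoa1 cannot be told apart from that of Apoa4, with which Gm10680 shares 90.0% of its exon bases.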

How the data were processed

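The submitters' processing notes name the tools edgeR, featureCounts, STAR 2.7.1a and Subread 2.0.0 and the builds mm10 and GRCm38. No source used here gives their roles, the annotation or the strand setting. The authors deposited 1 table of normalized gene counts (a signal) for 4 mice. Each value is a whole number of reads times a library constant of 1.1381, 1.12, 1.1192 or 1.1128. With this constant, 100% of values came out as whole reads, within 0.01. Run on those reads, edgeR's quasi-likelihood test called 3324 genes higher and 3439 lower.

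Genes were kept by filterByExpr in edgeR 4.0.16. Deposited values were divided by TMM-scaled library sizes (factors 0.848, 0.818, 1.219 and 1.183), transformed as log2(value + 1), and tested with limma 3.58.1, two-sided, with trend and robust moderation, Benjamini-Hochberg over 18285 genes, threshold 0.05. The fold change on this scale understates that of genes with few reads. With 2 mice per group, p-values measure only the spread between these mice, largely borrowed across genes (median prior degrees of freedom 5.87). Scripts were tested on simulated data. DESeq2 1.42.0 and edgeR on recovered reads, other scalings, filters and pseudocounts, a replicate block and each library left out were alternatives.

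The 9 genes and all lists were chosen with earlier results of these data known. The share of a list that was called was not tested against that of all genes. Named by rule were the 3 most changed called genes of each lipid list at 1 CPM or more, 5 regulators, the 2 most changed neighbours and, per cell type list, the 2 most abundant genes and those at 0. Any other gene named was chosen for its place or role, or after its values were seen. Of the regulators and promoter motifs chosen, 1 each is not reported here. Mia2 was matched as Ctage5 through RefSeq synonyms. Gene positions are from GENCODE M21.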

Additional observations from a re-analysis of the deposited data

How the results depend on the processing

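Apoa1, Apoa4, Apoc3 and Fabp1 were lower under each alternative in which they were tested (Apoc3 was not at a filter of 1 CPM), and Mttp and Apoe were higher. Scaling mattered most. At the deposited scaling, where the median of all genes was 0.526, 11483 genes were called higher and 998 lower, against 3369 and 3520 in the main analysis. There 4 of the 9 genes were called higher and their median difference was 0.27. Called higher and lower at that scaling were 14 and 0 assembly genes, 3 and 3 other lipid-binding genes, 10 and 3 receptor genes, 12 and 0 efflux genes, 17 and 2 regulators and 15 and 2 neighbours, and 1 other apolipoprotein was called lower. There Npc2 (0.04) and Pon3 (0.23) changed sign.

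Other settings moved small counts. The lower members among other apolipoproteins numbered 1 with no low-value filter, with a filter of 1 CPM, with DESeq2 on recovered reads and with the replicate block. With DESeq2 on recovered reads 2 of the 9 genes were called higher and 1 neighbour was. With upper-quartile scaling, and with no filter, 1 other lipid-binding gene was called higher. With no filter 0 efflux genes were called higher.

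Replicate numbers are shared by the groups, but nothing in the labels ties them to a litter or day. The deviations of same-numbered libraries were only weakly related, with a negative correlation (−0.142 across 18285 genes). With the replicate block 2359 genes were called higher and 2623 lower. Among the lists the block left 5 lower assembly genes, 0 higher efflux genes, 3 lower regulators, 1 higher neighbour and 1 lower other apolipoprotein. A crossed block, added after seeing the data, called 4202 higher and 4323 lower.

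With each library left out in turn, genes called higher ranged from 2506 to 2915 and lower from 2646 to 3125. The lists ranged likewise, assembly genes from 2 to 5 higher and 5 to 8 lower, other lipid-binding genes from 0 to 1 higher and 4 to 5 lower, receptor genes from 4 to 5 higher and 3 to 6 lower, efflux genes from 0 to 1 higher and 1 to 3 lower, regulators from 4 to 5 higher and 2 to 3 lower, neighbours from 0 to 2 higher and 6 to 8 lower, other apolipoproteins at 2 higher and 0 to 2 lower, and the 9 genes themselves from 1 to 2 higher and 3 to 5 lower. Their median difference went from −0.38 to −0.11.

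Depth limits Apoa5, Apoc1 and Apoc4, which had too few reads for the test, and Apoc3, which had at most 17 reads in a library. The cause of the shifts between settings was not tested.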
